A study of Mus musculus with 4 samples.

Results

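Replication-dependent core histone genes, which encode the H2A, H2B, H3 and H4 proteins laid down on newly copied DNA, were followed in AML12 cells, a mouse hepatocyte line, after knockdown of Safb. They were taken by symbol, as every gene named Hist1 to Hist4 followed by h2a, h2b, h3 or h4, without the linker histone H1 genes. This gave 64 of the 52192 gene identifiers measured: 20 H2A, 19 H2B, 12 H3 and 13 H4 genes. Of these, 3 are annotated as pseudogenes: Hist1h2aj and Hist1h2al among the H2A genes and Hist3h2bb-ps among the H2B genes. By location, 50 belonged to the large Hist1 cluster on chromosome 13, 10 to Hist2 on chromosome 3, 3 to Hist3 on chromosome 11 and 1 to Hist4 on chromosome 6. The study held 2 libraries of cells infected with a lentivirus carrying a short hairpin RNA against Safb (shSafb) and 2 of cells infected with a control hairpin virus (shCtrl), in all cases collected 5 days after infection. Every library came from the 1 cell line, grown with 10% serum, an ITS supplement and 0.1 µM dexamethasone, a glucocorticoid. The labels name 1 hairpin group against Safb and do not say whether the 2 libraries of a group came from separate cultures, so that p-values here reflect the spread among the libraries alone.

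Replication-dependent histone genes are known to be transcribed mainly in S phase, when DNA is copied, from a nuclear site organised by NPAT. Their messenger RNAs usually carry no poly(A) tail and end instead in a short conserved hairpin, the stem-loop, which is bound by the stem-loop binding protein SLBP and cut free by a complex that holds the U7 small nuclear RNA with LSM10 and LSM11. Total RNA depleted of ribosomal RNA, as used here, keeps such tailless RNAs, which a selection on poly(A) would largely lose. Most of the proteins are encoded many times over by genes whose coding sequences are nearly alike.

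The stem-loop was read from the GENCODE transcripts (mouse release M21) of these genes, and is shown for members whose levels are described below because its 16 bases separate the H4 genes from the other types. It is given with 6 flanking bases on each side in lower case, the hairpin in capitals.
Hist2h2aa2: taaaaaGGCTCTTTTCAGAGCCacccac
Hist2h2ac: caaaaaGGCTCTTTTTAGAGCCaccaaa
Hist1h2bb: cccaaaGGCTCTTTTAAGAGCCacccac
Hist1h2bg: cccaaaGGCTCTTTTCAGAGCCacccat
Hist1h3e: caaaacGGCTCTTTTAAGAGCCacctcc
Hist1h4h: accaaaGGCCCTTTTCAGGGCCgcccac
Hist1h4n: actaaaGGCCCTTTTCAGGGCCatccaa
Hist1h4b: acaaaaGGTCCTTTTCAGGACCactcac
Hist2h4: cctaacGGCCCTTTTTAGGGCCaaccac
A match to the stem-loop consensus was present in the transcript model of 42 of the 64 members, in 8 forms, against 70 of 21951 protein-coding genes in all (0.319%). The form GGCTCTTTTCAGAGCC occurred in 10 H2A, 8 H2B and 5 H3 genes, and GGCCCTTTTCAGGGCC in 7 H4 genes. No H4 form was found in an H2A, H2B or H3 gene. The other 22 models hold no match, which says only that the annotated model does not contain these letters.

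Safb, the gene targeted by the hairpin, was at 15.8 and 15.0 TPM (transcript abundance per length, scaled to a fixed total) in the shSafb libraries and at 23.8 and 23.3 TPM in the shCtrl libraries. It was lower by limma (log2 change -0.56 ± 0.07 SE, Benjamini-Hochberg adjusted p = 0.00411). Of 13111 genes with a mean of at least 1 TPM, 5805 (44.3%) passed an adjusted p under 0.05, 2867 of them higher (21.9%) and 2938 lower (22.4%) in the shSafb libraries. Without shSafb replicate 1 the higher count was 1768 and without shSafb replicate 2 it was 1814. The median log2 change over all tested genes was 0.0016. Rank correlations of TPM across genes were 0.989 between the shSafb libraries, 0.990 between the shCtrl libraries and 0.951 to 0.952 between groups. All 12 hepatocyte markers were tested, with 3 higher, 3 lower and a median log2 change of 0.0003, and they summed to 13877 and 13726 TPM in the shSafb libraries and to 9958 and 9782 TPM in the shCtrl libraries. Trf, the transferrin gene, was at 6814 and 6778 TPM in the shSafb libraries and at 2453 and 2418 TPM in the shCtrl libraries. Alb, the serum albumin gene, was at 122 and 127 TPM in the shSafb libraries and at 378 and 345 TPM in the shCtrl libraries. Fibroblast and stellate cell markers summed to 2.81 and 3.45 TPM over 7 genes in the shSafb libraries and to 2.96 and 3.03 TPM in the shCtrl libraries. Lum was at 0, 6 of the 7 were below the filter, and the 1 gene tested was not called. Endothelial markers summed to at most 0.144 TPM over 4 genes with Cdh5 and Kdr at 0, and none was tested. Macrophage and blood markers summed to 2.83 and 3.09 TPM in the shSafb libraries and 1.63 and 2.29 TPM in the shCtrl libraries. Adgre1 was at 0, and Csf1r, the 1 gene of these tested, was called higher. The 5 cholangiocyte markers summed to 1513 and 1578 TPM in the shSafb libraries and to 1675 and 1640 TPM in the shCtrl libraries. Of these 5, 4 were tested, Krt19 being higher and Spp1 and Sox9 lower, with Epcam at or near 0.

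Core histone RNA was about 2-fold more abundant in the shSafb libraries. The 64 genes summed to 13304.5 and 13400.4 TPM in the shSafb libraries and to 6594 and 6704 TPM in the shCtrl libraries, a ratio of means of 2.01. This was 1.33% and 1.34% of all TPM in the shSafb libraries, against 0.659% and 0.670% in the shCtrl libraries. Of 62 members that were tested, 56 rose, none fell and 6 were not called, beside 21.9% of all tested genes higher and 22.4% lower. The limma fit gave no member lower at an unadjusted p under 0.05 either. The median log2 change of the tested members was 1.05, and 36 of the 62 changed by a log2 of at least 1, beside 3.73% of all tested genes. When a 1.5-fold change was demanded as well, 51 members were higher, beside 9.94% of all tested genes. Both shSafb values lay above both shCtrl values for 58 members, beside 35.5% of all tested genes, and below them for 1, Hist2h2be, beside 39.3%. In libraries from whole cultures, more cells that express these genes and more RNA per cell cannot be told apart.

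**Figure D1:**
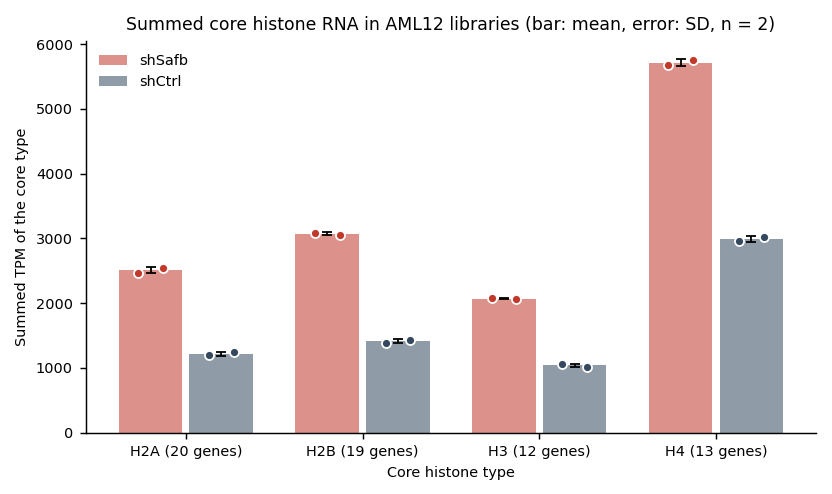
Summed TPM (y axis) of the genes of each core type (x axis) in shSafb (red, left of each pair) and shCtrl libraries (grey, right). Bars are means of 2 libraries, points the libraries and error bars the SD; the shSafb sums are 1.91 (H4) to 2.18 (H2B) times the shCtrl sums.

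All 4 core types had higher sums in the shSafb libraries, by 1.91 to 2.18 times. H4 genes summed to 5671 and 5747 TPM in the shSafb libraries and to 2955 and 3017 TPM in the shCtrl libraries, a ratio of 1.91. H2B genes summed to 3089 and 3054 TPM in the shSafb libraries and to 1390.33 and 1430.38 TPM in the shCtrl libraries, a ratio of 2.18. H2B, the partner of H2A in the nucleosome, thus had the highest ratio and H4 the lowest. The H2B sum includes Hist2h2bb, at 591 and 553 TPM in the shSafb libraries and 197 and 211 TPM in the shCtrl libraries. Hist2h2bb lies inside Gm42743, a gene outside the core histones on the same strand, whose part in the H2B sum was not tested. H2A genes summed to 2471 and 2540 TPM in the shSafb libraries and to 1192 and 1241 TPM in the shCtrl libraries, a ratio of 2.06. H3 genes summed to 2073 and 2059 TPM in the shSafb libraries and to 1057 and 1016 TPM in the shCtrl libraries, a ratio of 1.99. The shSafb and shCtrl sums did not overlap for any type, and 2 libraries against 2 cannot go below an exact permutation p of 0.333. H4 RNA was the largest part of core histone TPM, at 42.6% and 42.9% in the shSafb libraries and 44.8% and 45.0% in the shCtrl libraries. H2B was at 23.2% and 22.8% in the shSafb libraries and 21.1% and 21.3% in the shCtrl libraries, so the H4 share was lower and the H2B share higher in both shSafb libraries. The H2A share was 18.58% and 18.95% in the shSafb libraries against 18.07% and 18.51% in the shCtrl libraries, narrowly apart. The H3 share was 15.6% and 15.4% in the shSafb libraries against 16.02% and 15.2% in the shCtrl libraries, with overlapping groups. Sums over a type take in reads wherever they were placed among its copies, though the models of the copies differ in length.

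**Figure D2:**
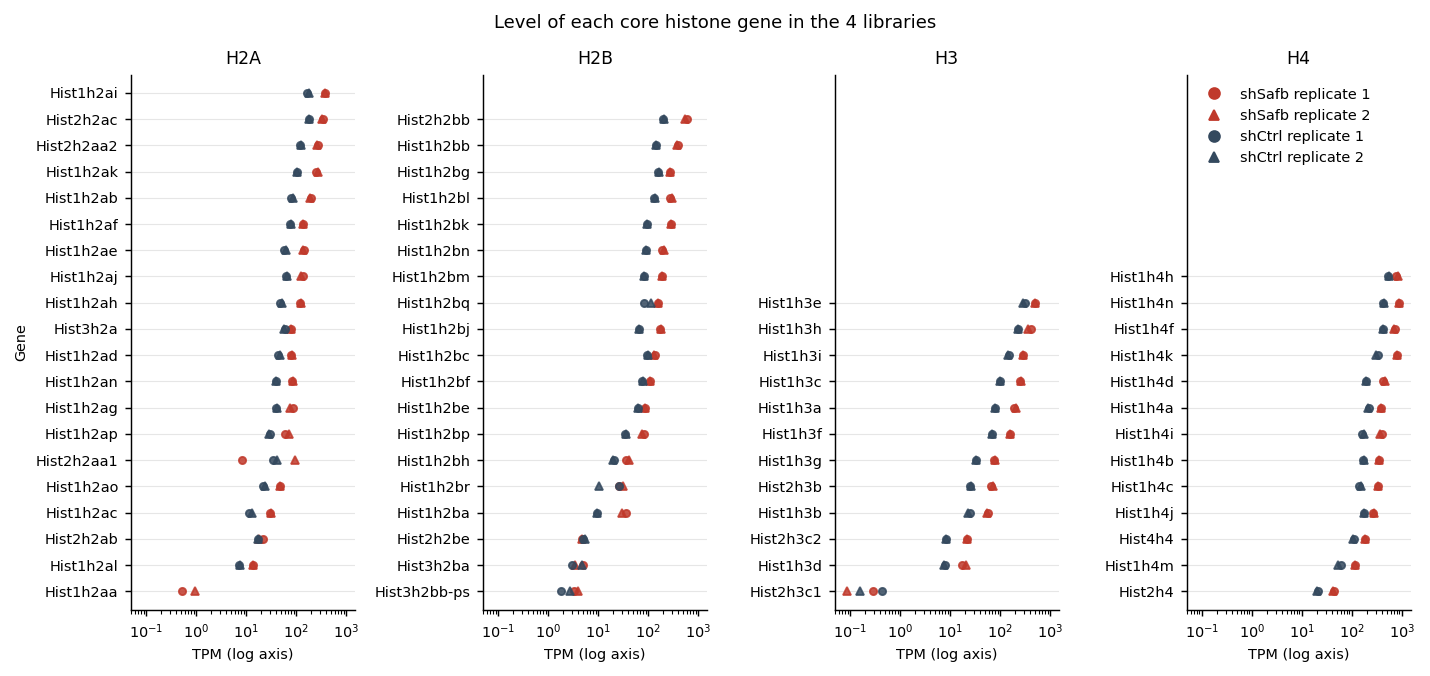
TPM of each of the 64 genes (rows, by core type and mean level) on a log axis in the shSafb (red) and shCtrl (grey) libraries, circles for replicate 1 and triangles for replicate 2. For 58 of the 62 tested genes both red points lie right of both grey points; the shCtrl values of Hist1h2aa are listed at 0 and not drawn.

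All 13 H4 genes were tested and all 13 rose, by a log2 of 0.56 to 1.35 with a median of 1.03. Histone H4 has no commonly used replacement variant, and its copies encode the same protein. Hist1h4h (chr13:23531050-23531519, + strand), the H4 gene with the highest mean level, was at 772 and 833 TPM in the shSafb libraries and at 540.2 and 567 TPM in the shCtrl libraries. It had the smallest H4 change (log2 0.56 ± 0.06 SE, adjusted p = 0.00392). Hist1h4n was at 867 and 865 TPM in the shSafb libraries and at 420.0 and 446 TPM in the shCtrl libraries (log2 1.02 ± 0.06, adjusted p = 0.000876). Hist1h4f was at 731 and 716 TPM in the shSafb libraries and at 429 and 417 TPM in the shCtrl libraries (log2 0.80 ± 0.04, adjusted p = 0.000738). None of these 3 most abundant H4 genes exceeded the H4 median change, and the shSafb and shCtrl values did not overlap in any of them. Hist1h4b, named for its stem-loop form after its values were seen, was at 357 and 348 TPM in the shSafb libraries and at 166 and 176 TPM in the shCtrl libraries (log2 1.06 ± 0.06, adjusted p = 0.000874). Hist1h4k had the largest H4 change, with 798 and 805 TPM in the shSafb libraries against 328 and 312 TPM in the shCtrl libraries. Both H4 genes outside Hist1 also rose. Hist2h4 was at 44.2 and 42.1 TPM in the shSafb libraries and at 21.3 and 20.6 TPM in the shCtrl libraries (log2 1.03 ± 0.06, adjusted p = 0.000867), and Hist4h4 at 188 and 184 TPM in the shSafb libraries and at 109 and 108 TPM in the shCtrl libraries (log2 0.80 ± 0.04, adjusted p = 0.000854).

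Of 12 H3 genes 11 were tested, and all 11 rose, by a log2 of 0.79 to 1.42 with a median of 1.23. H3 carries most of the well-known tail marks, and the Hist1 and Hist2 genes encode its replication-coupled forms. Hist1h3e (chr13:23561534-23562369, - strand) was at 512 and 514 TPM in the shSafb libraries and at 317 and 289 TPM in the shCtrl libraries. Hist1h3h was at 426 and 373 TPM in the shSafb libraries and at 235 and 233 TPM in the shCtrl libraries, and Hist1h3i at 294 and 293 TPM in the shSafb libraries and at 153 and 146 TPM in the shCtrl libraries. These 3 most abundant H3 genes had the 3 smallest H3 changes, with log2 changes of 0.79 ± 0.04, 0.79 ± 0.08 and 0.99 ± 0.04 and adjusted p between 0.000583 and 0.00249 (limma). The largest H3 change was that of Hist2h3b, at 66.8 and 72.5 TPM in the shSafb libraries and 25.7 and 26.1 TPM in the shCtrl libraries (log2 1.42 ± 0.07, adjusted p = 0.000738). Hist2h3c2 was at 21.5 and 22.0 TPM in the shSafb libraries and at 8.24 and 8.46 TPM in the shCtrl libraries (log2 1.31 ± 0.07, adjusted p = 0.000867). Its copy Hist2h3c1 did not reach the filter, with 0.286 and 0.0880 TPM in the shSafb libraries and 0.449 and 0.157 TPM in the shCtrl libraries, and every 50-base stretch of its model also occurs in another gene.

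Of 20 H2A genes 19 were tested, 17 rose and 2 were not called, with a median log2 change of 1.03. H2A pairs with H2B in the nucleosome, and most H2A genes lie head to head with an H2B gene. Hist1h2ai (chr13:21716422-21716814, + strand) was at 380 and 374 TPM in the shSafb libraries and at 167 and 181 TPM in the shCtrl libraries (log2 1.14 ± 0.07, adjusted p = 0.000927). Hist2h2ac was at 346 and 323 TPM in the shSafb libraries and at 178 and 180 TPM in the shCtrl libraries (log2 0.92 ± 0.06, adjusted p = 0.000927). Hist2h2aa2 was at 269 and 266 TPM in the shSafb libraries and at 120 and 122 TPM in the shCtrl libraries (log2 1.16 ± 0.05, adjusted p = 0.000612). In each of these 3 genes the groups stood clear of each other. The smallest called H2A change was that of Hist3h2a, at 79.6 and 80.1 TPM in the shSafb libraries and 58.7 and 55.8 TPM in the shCtrl libraries (log2 0.50 ± 0.05, adjusted p = 0.0022). Hist1h2aa, the testis H2A gene, was at 0.514 and 0.934 TPM in the shSafb libraries and was listed at 0 in both shCtrl libraries. It was below the filter, and was called higher when genes with a mean of at least 0.1 TPM were tested (adjusted p = 0.0229) or with no filter (adjusted p = 0.0338).

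The 19 H2B genes were all tested and spread the most: 15 rose, 4 were not called, and the log2 changes ran between -0.06 and 1.71 with a median of 0.92. The 3 largest changes of all core histone genes were H2B genes. Hist1h2ba (chr13:23933773-23934156, - strand), which encodes the testis H2B, was at 35.6 and 30.5 TPM in the shSafb libraries and at 9.48 and 9.61 TPM in the shCtrl libraries (log2 1.71 ± 0.10, adjusted p = 0.000878). Hist1h2bk was at 287 and 285 TPM in the shSafb libraries and at 93.8 and 93.5 TPM in the shCtrl libraries (log2 1.63 ± 0.04, adjusted p = 0.000531). Hist2h2bb, the most abundant H2B gene (chr3:96269752-96270132, + strand), was at 591 and 553 TPM in the shSafb libraries and at 197 and 211 TPM in the shCtrl libraries (log2 1.51 ± 0.07, adjusted p = 0.000738). All 3 stood far above the spread between libraries. Hist2h2bb lies inside Gm42743, a long intergenic RNA gene on the same strand, and 53.6% of the 50-base stretches in its model are shared with another gene, none of them a core histone. Gm42743 was at 65.6 and 63.2 TPM in the shSafb libraries and at 22.1 and 22.1 TPM in the shCtrl libraries, and the part of its reads in the Hist2h2bb result was not tested.

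Other H2B genes were also highly expressed. Hist1h2bb was at 404 and 379 TPM in the shSafb libraries and at 146 and 141 TPM in the shCtrl libraries (log2 1.46 ± 0.05, adjusted p = 0.000531), and Hist1h2bg at 280.1 and 276 TPM in the shSafb libraries and at 161 and 163 TPM in the shCtrl libraries (log2 0.80 ± 0.05, adjusted p = 0.000865). The smallest called H2B changes were those of 3 genes of the same stretch of chromosome 13 as Hist1h2bg, chosen after their values were seen. Hist1h2bc was at 137 and 134 TPM in the shSafb libraries and at 96.5 and 101.3 TPM in the shCtrl libraries (log2 0.48 ± 0.06, adjusted p = 0.0046). Hist1h2be and Hist1h2bf changed by a log2 of 0.51 ± 0.05 and 0.53 ± 0.06, with adjusted p of 0.00258 and 0.0039. Their shSafb values still lay above both shCtrl values. The annotated span of Hist1h2be overlaps the linker histone gene Hist1h1e on the same strand. Hist1h1e was at 185 and 204 TPM in the shSafb libraries and at 109 and 95.8 TPM in the shCtrl libraries. The part of its reads in the Hist1h2be result was not tested.

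**Figure D3:**
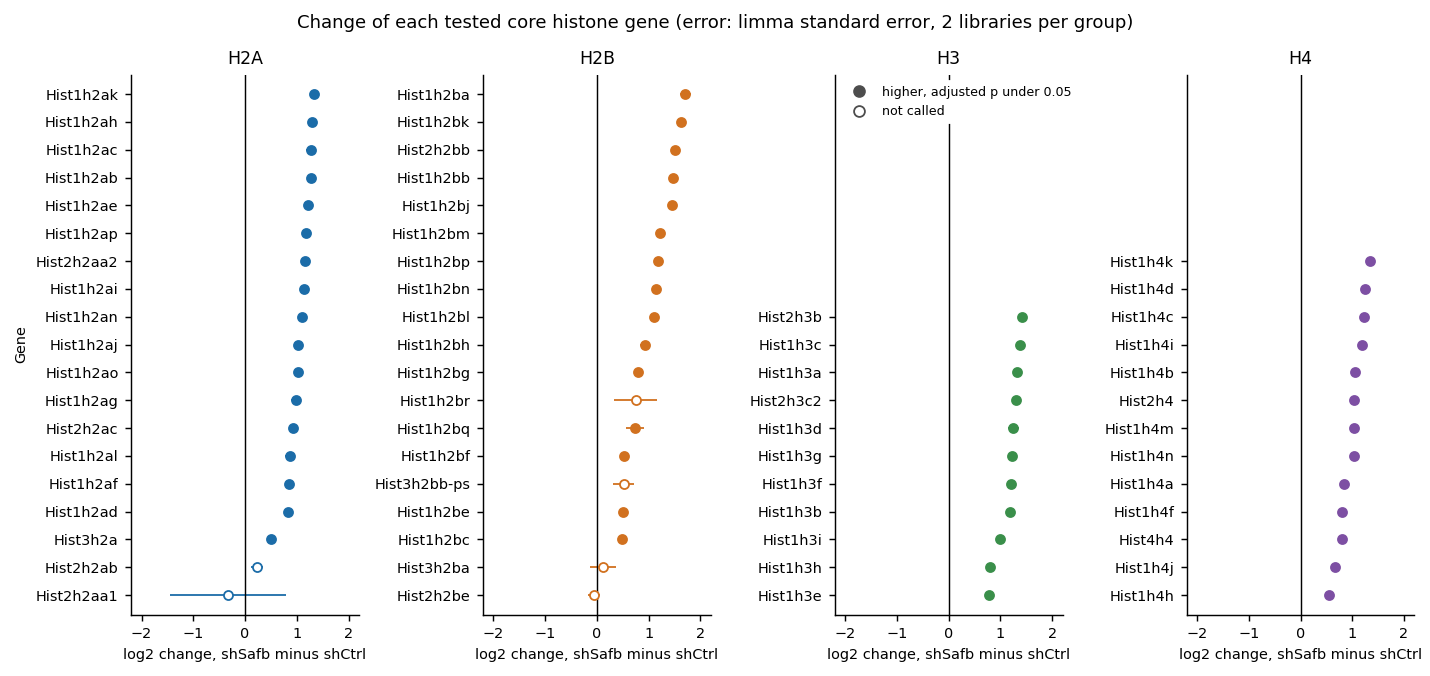
Log2 change on the log2(scaled TPM + 1) scale, shSafb minus shCtrl (x axis), of the 62 tested core histone genes (rows) by core type, with limma standard errors as bars. Filled points are the 56 genes called higher and open points the 6 not called, all of them H2A or H2B genes.

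The 6 genes not called were all H2A or H2B genes, and for 2 of them a near-identical copy was called. Hist2h2aa1 was at 8.25 and 96.1 TPM in the shSafb libraries and at 34.1 and 40.7 TPM in the shCtrl libraries (log2 -0.33 ± 1.12, adjusted p = 0.836). The shSafb libraries lay on either side of both shCtrl libraries, so that the gene was called higher without shSafb replicate 1 (log2 1.37, adjusted p = 0.0127) and lower without shSafb replicate 2 (log2 -2.02, adjusted p = 0.00788). Of its 50-base stretches 89.2% occur also in Hist2h2aa2. The sum of the pair was 278 and 362 TPM in the shSafb libraries and 154 and 163 TPM in the shCtrl libraries, a ratio of 2.02. Gm20634, which overlaps Hist2h2aa1 on the same strand, was at 16.8 and 1.31 TPM in the shSafb libraries and at 0.552 and 0.644 TPM in the shCtrl libraries, high in the same library in which Hist2h2aa1 was low. Hist1h2br was at 26.2 and 31.1 TPM in the shSafb libraries and at 26.8 and 10.4 TPM in the shCtrl libraries (log2 0.75 ± 0.42, adjusted p = 0.204). It was called higher without shCtrl replicate 1 (log2 1.36, adjusted p = 0.0132). Its copy Hist1h2bq, which shares 97.3% of its 50-base stretches with it, was at 157 and 160.3 TPM in the shSafb libraries and at 82.0 and 113 TPM in the shCtrl libraries and was called (log2 0.74 ± 0.17, adjusted p = 0.0261). That call was lost without shSafb replicate 1 (adjusted p = 0.0825), without shSafb replicate 2 (adjusted p = 0.0827) and with no filter (adjusted p = 0.0768). The 2 copies summed to 183 and 191 TPM in the shSafb libraries and to 109 and 123 TPM in the shCtrl libraries, a ratio of 1.61.

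The other 4 genes not called were expressed below the members' median of 116 TPM. Hist2h2be, an H2B gene, was at 4.83 and 4.88 TPM in the shSafb libraries and at 4.89 and 5.53 TPM in the shCtrl libraries (log2 -0.06 ± 0.11, adjusted p = 0.692). It shares no 50-base stretch with any other gene, and its direction turned without shCtrl replicate 2 (log2 0.03). Hist2h2ab was at 22.1 and 17.8 TPM in the shSafb libraries and at 17.0 and 17.1 TPM in the shCtrl libraries (log2 0.23 ± 0.12, adjusted p = 0.181). Hist3h2ba was at 4.94 and 3.54 TPM in the shSafb libraries and at 2.9998 and 4.88 TPM in the shCtrl libraries, with overlapping groups and a direction that turned without shCtrl replicate 1 (log2 -0.19) and without shSafb replicate 1 (log2 -0.07). The pseudogene Hist3h2bb-ps was at 3.26 and 4.04 TPM in the shSafb libraries and at 1.85 and 2.77 TPM in the shCtrl libraries (log2 0.52 ± 0.20, adjusted p = 0.0966). A missed threshold does not show that the levels of these 4 genes were the same in both groups.

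By location, log2 changes ran between 0.48 and 1.71 in Hist1 and between 0.12 and 0.52 in Hist3. In Hist1, 48 of 49 tested genes rose (median log2 change 1.11), and the sum was 11655 and 11731 TPM in the shSafb libraries against 5815 and 5901 TPM in the shCtrl libraries, a ratio of 1.996. Its 50 members lie in 3 stretches of chromosome 13 and at 1 outlying pseudogene. The stretch of 5 genes between bases 22035164 and 22043676 had a ratio of 2.50, with 1061 and 1042 TPM in the shSafb libraries and 406 and 435 TPM in the shCtrl libraries. The stretch of 18 genes between bases 21715763 and 21837530 had a ratio of 2.06, and that of 26 genes between bases 23531050 and 23934851 a ratio of 1.89. In Hist2, 6 of 9 tested genes rose and the sum was 1374 and 1397 TPM in the shSafb libraries against 607 and 632 TPM in the shCtrl libraries, a ratio of 2.24. In Hist3, 1 of 3 rose, Hist3h2a, and the sum was 87.8 and 87.7 TPM in the shSafb libraries against 63.5 and 63.4 TPM in the shCtrl libraries, a ratio of 1.38. The single Hist4 gene, Hist4h4, had a ratio of 1.71. No test was made of the differences between these places.

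Near-identical sequence limits what can be said of single genes. Of the 64 members, 63 share at least 1 stretch of 50 bases with another gene, and the median member shares 53.9% of its stretches. The sources used here do not give how reads that fit several copies were counted. Among the 13 members that share under 25% of their 50-base stretches, 12 were tested, 9 rose and 3 were not called, with a median log2 change of 0.86 and a summed ratio of 1.94. Among the 31 that share 25% to 75%, 30 rose (median 1.20, ratio 2.03), and among the 20 that share at least 75%, 17 of 19 tested rose (median 1.03, ratio 1.99). H4 genes with little shared sequence rose clearly: Hist2h4 (1.01% shared) and Hist4h4 (7.07%), given above, and Hist1h4d (10.2%), at 422 and 470.3 TPM in the shSafb libraries and 189 and 192 TPM in the shCtrl libraries (log2 1.25 ± 0.07, adjusted p = 0.000852). Across the 62 tested members, which share libraries and in part reads, the Spearman correlation of the log2 change was 0.08 with the share of sequence in common, 0.14 with the mean level and -0.23 with the length of the model.

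**Figure D4:**
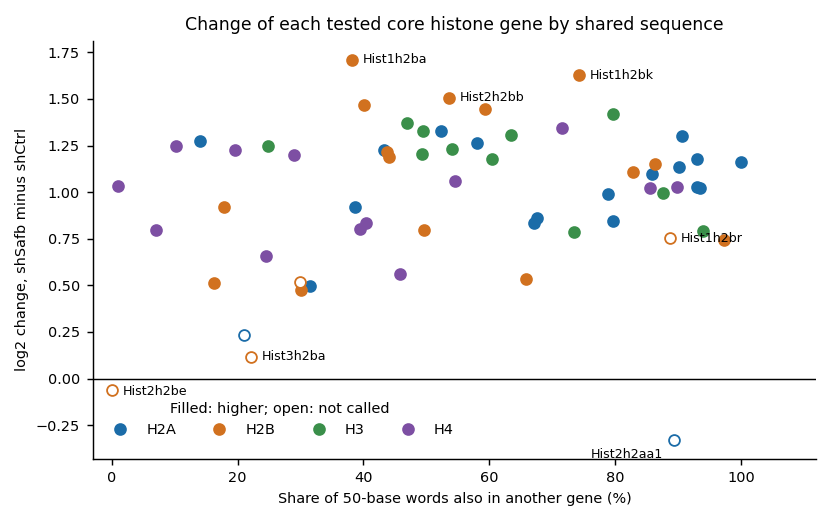
Log2 change, shSafb minus shCtrl (y axis), of the 62 tested genes against the share of 50-base stretches of the transcript model that also occur in another gene (x axis, %), coloured by core type, open where not called. Under 25% shared, log2 changes ran between -0.06 and 1.28, and the largest of all, 1.71 for Hist1h2ba, was at 38.2%. The genes called include H4 genes near 0% such as Hist2h4 at 1.01%.

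The gene models also differ in their ends. Models were 312 to 2863 bases long, with a median of 522, and 15 ran past 1000 bases. Of those 15, 14 were tested and 12 rose (median log2 change 0.86), against 44 of 48 shorter ones (median 1.10). Members with the stem-loop in the model rose in 39 of 41 tested cases (median 1.06), and those without it in 17 of 21 (median 1.03). The shSafb sums of these 2 sets were 1.95 and 2.15 times their shCtrl sums. A total of 23 members, among them all 20 H2A genes, are overlapped on the opposite strand by 24 annotated genes, of which the most abundant averaged 3.08 TPM. The libraries kept strand, but the sources used here do not give whether the counting did, so reads of such partners may not have been told apart.

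Promoters of 56 members were matched in the RefSeq table (GRCm38.p6), 250 bases before to 50 after the annotated start. They are shown for the H2B genes Hist1h2bk and Hist2h2bb, which changed most among members that averaged over 100 TPM, for an H2B gene with a small change and for abundant H3 and H4 genes, since the types differ in the motifs they hold. Capitals mark the box CCAAT, the sequence TATAAA and the octamer ATTTGCAT, or the reverse complement of each, at any position in the window. Position and strand were not used, so a marked TATAAA need not be a TATA element of the gene named. The match marked in Hist1h2bk, for example, is the same site as a TATAAA in the window of its back-to-back neighbour Hist1h2ah.
Hist1h2bk (chr13:22035571-22035870, + strand): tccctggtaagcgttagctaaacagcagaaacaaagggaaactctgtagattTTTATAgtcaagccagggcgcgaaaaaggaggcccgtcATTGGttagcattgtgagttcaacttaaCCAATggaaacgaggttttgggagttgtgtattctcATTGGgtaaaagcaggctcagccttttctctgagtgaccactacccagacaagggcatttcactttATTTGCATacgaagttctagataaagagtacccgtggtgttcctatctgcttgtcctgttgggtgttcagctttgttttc
Hist2h2bb (chr3:96269450-96269749, + strand): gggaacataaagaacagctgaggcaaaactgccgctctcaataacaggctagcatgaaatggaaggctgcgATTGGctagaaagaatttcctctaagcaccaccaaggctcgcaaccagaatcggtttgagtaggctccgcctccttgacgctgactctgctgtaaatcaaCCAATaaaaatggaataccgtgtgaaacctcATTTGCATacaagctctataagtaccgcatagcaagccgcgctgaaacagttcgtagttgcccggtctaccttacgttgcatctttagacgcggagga
Hist1h2bf (chr13:23574158-23574457, - strand): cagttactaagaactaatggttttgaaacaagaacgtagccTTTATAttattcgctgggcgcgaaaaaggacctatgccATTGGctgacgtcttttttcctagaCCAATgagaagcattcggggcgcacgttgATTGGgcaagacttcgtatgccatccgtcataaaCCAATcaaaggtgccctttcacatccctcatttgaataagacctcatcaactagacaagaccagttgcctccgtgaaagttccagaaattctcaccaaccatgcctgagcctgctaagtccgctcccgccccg
Hist1h3e (chr13:23562336-23562635, - strand): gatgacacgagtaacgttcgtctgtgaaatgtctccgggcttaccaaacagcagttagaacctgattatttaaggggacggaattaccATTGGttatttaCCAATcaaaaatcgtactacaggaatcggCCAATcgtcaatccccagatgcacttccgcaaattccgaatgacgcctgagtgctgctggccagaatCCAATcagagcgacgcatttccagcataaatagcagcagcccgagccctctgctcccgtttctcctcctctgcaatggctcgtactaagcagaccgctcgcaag
Hist1h4n (chr13:21832148-21832447, - strand): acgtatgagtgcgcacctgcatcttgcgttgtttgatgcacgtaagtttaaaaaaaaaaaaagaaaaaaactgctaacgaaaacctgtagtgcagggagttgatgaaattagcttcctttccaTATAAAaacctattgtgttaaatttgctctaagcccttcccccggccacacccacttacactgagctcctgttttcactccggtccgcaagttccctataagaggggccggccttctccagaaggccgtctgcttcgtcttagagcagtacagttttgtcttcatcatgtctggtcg
CCAAT, the box bound by NF-Y, was present in all 18 H2A, all 16 H2B and all 10 H3 promoters and in 3 of 12 H4 promoters, against 37.9% of 27025 promoters of the same length. TATAAA was present, at any position and on either strand, in 31 of the 56 promoters, against 14.2% of all. ATTTGCAT, the octamer bound by POU factors, was present in 7 H2A and 6 H2B promoters and in no H3 or H4 promoter, against 1.75% of all. The windows of H2A and H2B genes that start back to back overlap, so these counts are not of separate sites. The octamer of Hist1h2bk, for example, is also that counted for Hist1h2ah. The 6 H2B genes with the octamer in this window were Hist1h2ba, Hist1h2bg, Hist1h2bk, Hist1h2bb, Hist2h2bb and Hist1h2bm, with a median log2 change of 1.49, and the 10 without it had a median of 0.84. No promoter was matched for the tested H2B genes Hist1h2bc (log2 0.48), Hist2h2be (log2 -0.06) and Hist3h2bb-ps (log2 0.52), so neither median holds them. Each starts back to back with an H2A gene whose window holds the octamer: Hist1h2ac, Hist2h2ac and Hist3h2a. For tested H2A genes with a matched promoter the medians were 1.25 with the octamer in 6 and 1.02 without it in 11. These medians are a description of few genes that share libraries and sequence, and no test was made of them.

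A set of 13 pairs of an H2A and an H2B gene, both tested, start back to back with 164 to 268 bases between their starts. The 2 genes of a pair did not always change alike. The H2A gene had the larger log2 change in 8 of the 13 pairs, and the median size of the difference was 0.30. The widest gap was between Hist2h2ac (log2 0.92) and Hist2h2be (log2 -0.06), with 239 bases between the starts. The next widest was between Hist1h2ac, at 29.6 and 30.6 TPM in the shSafb libraries and 11.4 and 12.8 TPM in the shCtrl libraries (log2 1.28), and Hist1h2bc (log2 0.48). In Hist1h2ag and Hist1h2bj the H2B gene changed more, with log2 changes of 0.99 and 1.45. Across the 13 pairs, which share libraries and in part reads, the Pearson correlation of the 2 changes was 0.42 and the Spearman correlation 0.38.

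**Figure D5:**
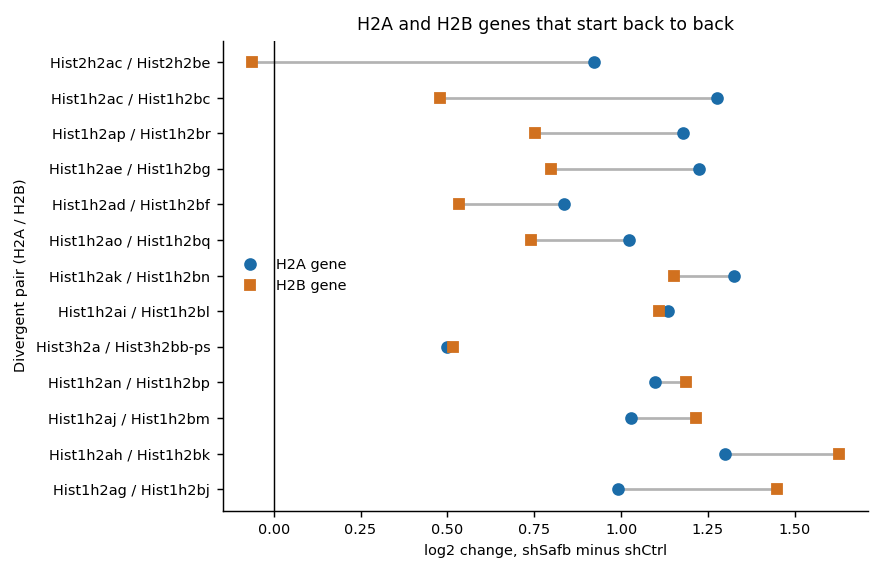
Log2 changes, shSafb minus shCtrl (x axis), of the H2A gene (circle) and the H2B gene (square) of 13 head-to-head pairs (rows, by the difference). The pair Hist2h2ac and Hist2h2be is the widest apart, at 0.92 and -0.06.

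Other genes were read from 5 lists: histone locus and 3′ end processing genes, histone chaperones, linker histones, replacement variants and S phase genes. Of their 92 tested members 41 rose and 13 fell, beside 21.9% of all tested genes higher and 22.4% lower. Without shSafb replicate 1 these counts were 26 and 7, and without shSafb replicate 2 they were 33 and 4. Without shCtrl replicate 1 the falls numbered 6. Of 33 tested genes of the histone locus and of 3′ end processing, 12 rose (36.4%), 4 fell (12.1%) and 17 were not called, with a median log2 change of 0.18. Slbp, which binds the stem-loop, was at 26.7 and 25.5 TPM in the shSafb libraries and at 24.0 and 23.1 TPM in the shCtrl libraries and was not called (log2 0.16 ± 0.06, adjusted p = 0.0897). Npat, the S phase activator of histone transcription, was at 12.5 and 11.8 TPM in the shSafb libraries and at 11.9 and 9.94 TPM in the shCtrl libraries (adjusted p = 0.215). The U7 particle genes Lsm10 (log2 0.18 ± 0.20, adjusted p = 0.489) and Lsm11 (log2 0.40 ± 0.13, adjusted p = 0.0611) were not called. Casp8ap2, a component of the histone locus body, rose to 6.49 and 6.31 TPM in the shSafb libraries, against 4.25 and 4.03 TPM in the shCtrl libraries (log2 0.55 ± 0.09, adjusted p = 0.0112, and 0.0588 without shSafb replicate 1). The Sm protein genes Snrpf and Snrpb and Nfya, a subunit of the CCAAT-binding factor, rose by a log2 of 0.62, 0.55 and 0.76. Cpsf1, of the cleavage complex, and Ncbp1, of the cap-binding complex, fell by 0.58 and 0.47 on the log2 scale.

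Of 22 tested histone chaperone genes 5 rose (22.7%), 4 fell (18.2%) and 13 were not called, with a median log2 change of 0.05. These shares are near the 21.9% and 22.4% of all tested genes, so the single genes given next are no result about chaperones as a group. Asf1b, an H3-H4 chaperone tied to proliferation, was at 10.1 and 10.99 TPM in the shSafb libraries and at 5.52 and 5.83 TPM in the shCtrl libraries (log2 0.81 ± 0.10, adjusted p = 0.00419). Chaf1a, the large subunit of chromatin assembly factor 1, was at 16.7 and 17.5 TPM in the shSafb libraries and at 10.99 and 9.98 TPM in the shCtrl libraries (log2 0.68 ± 0.08, adjusted p = 0.00352), while Chaf1b, another subunit, was at 15.7 and 17.5 TPM in the shSafb libraries and at 17.4 and 17.5 TPM in the shCtrl libraries (adjusted p = 0.689). Hat1, which acetylates new H4, rose by a log2 of 0.58 ± 0.07, and Nasp, which keeps a reserve of H3 and H4, was not called (log2 0.14 ± 0.08, adjusted p = 0.208). Rbbp7 and Nap1l1 fell by 0.31 and 0.20 on the log2 scale, with adjusted p of 0.0212 and 0.0271. Rbbp7 missed the threshold without shSafb replicate 1 (adjusted p = 0.0926) or 2 (adjusted p = 0.0775), and Nap1l1 with any 1 library left out (adjusted p of 0.0608 to 0.14).

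All 5 tested linker genes of the Hist1 cluster rose, with a median log2 change of 0.95, and Hist1h1a was at 374 and 363 TPM in the shSafb libraries and at 106 and 111.8 TPM in the shCtrl libraries. Of 9 tested replacement variants, which are made outside S phase as well, 5 rose (55.6%) and 2 fell (22.2%), with a median log2 change of 0.60. H2afx, whose protein is phosphorylated at DNA breaks, was at 180.0 and 179 TPM in the shSafb libraries and at 72.1 and 66.5 TPM in the shCtrl libraries (log2 1.38 ± 0.05, adjusted p = 0.000531), and H3f3b rose by a log2 of 0.60. H2afj fell to 72.5 and 68.7 TPM in the shSafb libraries, against 153 and 155 TPM in the shCtrl libraries (log2 -1.09 ± 0.05, adjusted p = 0.000782). H2afv fell by 0.32 on the log2 scale (adjusted p = 0.022), and missed the threshold without shSafb replicate 2 (0.0908), shCtrl replicate 1 (0.0559) or shCtrl replicate 2 (0.0803). Of 23 tested S phase genes 14 rose (60.9%, beside 21.9% of all tested genes), 3 fell (13.0%, beside 22.4%) and 6 were not called, with a median log2 change of 0.37. Ccna2, the S phase cyclin A, was at 34.1 and 35.6 TPM in the shSafb libraries and at 11.4 and 11.4 TPM in the shCtrl libraries, and Mki67, which marks cycling cells, at 15.9 and 15.5 TPM in the shSafb libraries and at 5.29 and 4.37 TPM in the shCtrl libraries. Rrm2, of ribonucleotide reductase, rose by a log2 of 0.64. Pcna, the sliding clamp of DNA polymerase, fell to 97.2 and 94.1 TPM in the shSafb libraries, against 136 and 137 TPM in the shCtrl libraries (log2 -0.48 ± 0.05, adjusted p = 0.00289). Cdc25a fell by 0.33 on the log2 scale (adjusted p = 0.0116), and missed the threshold without shSafb replicate 1 (0.0618) or 2 (0.0583). The part of S phase genes in the core histone result was not tested.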

How the data were processed

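Per the labels' protocols, AML12 RNA was depleted of ribosomal RNA and made into strand-specific libraries. The submitters' processing notes name the mm10 genome and the tools HISAT2, HTSeq, StringTie and DESeq2 without versions or roles. The sources used here give neither the annotation release nor the use of strand in counting. The values are TPM deposited by the authors. Read depth cannot be had from TPM, so counting intervals were not computed. The 6 identifiers on several rows were summed.

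Genes that averaged 1 TPM or more were tested. Deposited TPM were divided by median-of-ratios factors (1.029 and 0.9891 for shCtrl, 0.99 and 0.9925 for shSafb, replicates 1 and 2), turned into log2(value + 1) and fitted with limma 3.58.1 (R 4.3.3), two-sided, with a trend on mean level (degrees of freedom 2 residual, 2.61 prior), Benjamini-Hochberg adjustment over 13111 genes and a threshold of 0.05. Log2 changes are on that scale, which understates changes of low genes. Means and SDs are of deposited TPM over 2 libraries. Coordinates (GRCm38, mm10) and models come from GENCODE mouse release 21, where 52045 identifiers were found. Stretches of 50 bases were compared between transcripts of all genes. Python 3.11.15, pandas 2.3.3 and matplotlib 3.10.9 were used.

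Named were Safb, the 3 most abundant genes of each core type, every tested gene not called, the 3 largest and 3 smallest changes, every tested Hist2 to Hist4 gene, the testis genes, and of each other list up to 3 called genes with the smallest p, up to 2 that went the other way, and 9 fixed genes such as Slbp and Npat. The members, lists and rule were chosen with earlier results of these data known. Alternatives were other pseudocounts (0.1 and 0.5), filters, scalings, no trend, the replicate number as a block, a fold of at least 1.5, removal of a GC and length trend (span 0.3), and each library left out.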

Additional observations from a re-analysis of the deposited data

How the results depend on the processing

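The number of core histone genes called higher (56) was 51 to 57 under all alternatives, and the number called lower (0) was 0 except for 1, Hist2h2aa1, without shSafb replicate 2 (range 0 to 1 over libraries left out). The 62 single genes kept direction and call under the other pseudocounts, scalings, no trend, the replicate block and the GC and length correction. Without a filter or without a library, Hist1h2bq lost its call in 3 settings, Hist1h2br gained a call, Hist2h2aa1 gained 2 in opposite directions, and 3 uncalled genes turned. With a library left out, log2 changes ran between -2.0152 and 1.3737 for Hist2h2aa1, -0.1644 and 0.0288 for Hist2h2be, and -0.1866 and 0.4102 for Hist3h2ba. The cause was not tested.

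The median log2 change of 1.05 was 0.92 with the GC and length trend removed and 1.05 to 1.11 with a library left out. The summed ratio of 2.01 was 2.04 on scaled TPM and 1.99 to 2.03 with a library left out. Over all genes, 2867 higher and 2938 lower became 1303 and 1408 with a fold of at least 1.5, and 1768 to 2124 higher with a library left out. In the 5 lists of other genes, 41 higher and 13 lower became 24 and 1 with the fold, 26 to 34 and 4 to 9 with a library left out, and 8 lower with the replicate block. The replicate numbers had no pairing in the labels, and deviations of same-numbered libraries correlated at -0.064. The block gave 2537 higher and 2684 lower genes and changed no other count by over 1.5 times. Depth is unknown, and 2 libraries a group limit every value.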

Other observations

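Hist4h4 and the replacement variant gene H2afj start 3829 bases apart on chromosome 6 in opposite directions, and moved in opposite directions. Hist4h4 was at 188 and 184 TPM in the shSafb libraries and at 109 and 108 TPM in the shCtrl libraries. H2afj was at 72.5 and 68.7 TPM in the shSafb libraries and at 153 and 155 TPM in the shCtrl libraries. Both passed the threshold in limma (adjusted p = 0.000854 and 0.000782), with groups that did not overlap. The pair was chosen after the values were seen.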
